A study of Mus musculus with 14 samples.

Results

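The 38 genes described here are markers of blood-derived host cells, read in libraries that the labels give as MC-38 cancer cells, a mouse colon cancer line. They were chosen by name from 39 list entries, of which 1 is not a gene symbol of the tables, and they stand among 24411 genes counted. They fall into 5 classes: 6 genes shared by most white blood cells (pan-leukocyte), 11 of macrophages and monocytes, 7 of antigen presentation and dendritic cells, 5 of B and plasma cells, and 9 of T and natural killer (NK) cells. The question put to them is how much host RNA each library holds, of which lineage, and whether it moves with the study's groups.

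Bulk RNA was sequenced from 14 libraries in 6 groups. Tumour cells were GFP-positive MC-38 cells taken by flow sorting on day 30 from lung tumours, with 2 libraries in each of 4 host groups: wild-type (WT) mice with laparotomy on days 0 and 10, WT mice without surgery (WT control), PAD4 knockout (KO) mice with the same laparotomies, and KO mice without surgery (KO control). PAD4 is the enzyme that citrullinates histones when neutrophils release extracellular traps (NETs), webs of DNA and granule proteins. The MC-38 cells themselves are labelled WT in every group, so the deletion lies in the hosts only. In culture, 3 libraries of MC-38 cells given NET chromatin were set against 3 control cultures, all with no host. Whether the libraries within a group represent separate animals or cultures, or pools of animals, is not given in the labels. The p-values therefore measure only how far these samples spread, and that spread may be technical.

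White blood cells share CD45 (Ptprc) and a set of signalling and cytoskeletal proteins, and each lineage adds its own receptors. Macrophages and monocytes take up particles through scavenger and lectin receptors and digest them in lysosomes. Cells that present antigen load peptides on MHC class II molecules, B cells carry an immunoglobulin receptor held by CD79, and T cells a receptor held by CD3 with CD4 or CD8 beside it. The lung holds its own alveolar macrophages, and epithelial cancer cells are not known for making most of these products. In bulk RNA, fewer cells of a type and less RNA per cell cannot be told apart.

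Gene counts summed to 10.8 to 31.3 M in tumour libraries and to 6.39 to 20.6 M in cultures, and levels are given as CPM (each gene's share of its library's gene counts, scaled per M). WT control replicate 2 stood apart from the other tumour libraries in nearly every marker, so fold changes that rest on it are mostly given with and without it. Counts of members with an unadjusted p under 0.05, and of DESeq2 calls, are given only with it. Padi4, the gene removed from the hosts, was present in the cancer cells at 59.8 to 62.8 CPM in NET cultures and 68.5 to 75.0 CPM in control cultures. In tumour libraries it had 30.83 and 30.75 CPM in WT laparotomy, and 3.23 and 7.69 CPM in WT control. It had 3.92 and 2.74 CPM in KO laparotomy and 5.33 and 2.10 CPM in KO control libraries. Since the cancer cells hold Padi4 RNA, it says nothing on the hosts' genotype. Markers of host cells outside the blood lineages were also found in tumours: summed over 7 genes, lung epithelium reached 9.97 to 20.6 CPM in WT laparotomy, 126 to 779 in WT control, 78.1 to 88.9 in KO laparotomy and 31 to 401 CPM in KO control libraries. General epithelial genes were near the floor in the cancer line. Krt8, Krt18, Krt19, Epcam and Cdh1 summed to 0.324 to 0.490 CPM in control cultures and to 1.70 to 32.5 CPM in tumour libraries.

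The first comparison asked which of these genes the cancer line itself holds. In the 3 control cultures together, 12 of the 38 members had no count: Adgre1, Spi1 and Cybb of the macrophage class, Flt3 and Xcr1 of dendritic cells, Ms4a1 of B cells, and Cd8a, Nkg7, Gzma, Gzmb, Prf1 and Klrd1 of T and NK cells. A count of 0 there allows a level of up to 0.0899 CPM (3 counts over the group, counting error only). Another 12 had 1 to 3 counts, and 14 had more. The largest of these was Cd68 (chromosome 11, 69664213 to 69666153, GRCm38), which encodes a lysosomal glycoprotein and is widely used as a macrophage marker.

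Cd68 stood at 15.9 and 15 CPM in WT laparotomy, 23.4 and 60.2 in WT control, 31.6 and 30.0 in KO laparotomy and 15.3 and 18.6 CPM in KO control libraries, against 94.9, 102 and 83.4 CPM in control cultures. Every tumour library lay below every control culture. The log2 fold change was -1.93 ± 0.21 (SE; edgeR adjusted p = 2.0e-05), and -2.14 ± 0.09 without WT control replicate 2 (edgeR adjusted p = 1.4e-08). Cd68 was the only member lower in tumours by this test. Since the cancer line itself holds Cd68 RNA, its level in a tumour library is not that of host cells alone. Control cultures also held 9.02 CPM of Cd74 (the MHC class II invariant chain), 8.56 of Cd14 (a co-receptor for bacterial lipopolysaccharide), 2.79 of H2-Eb1 (an MHC class II chain), 2.46 of Lcp1 (the actin bundling protein L-plastin) and 2.06 CPM of Lyz2 (lysozyme), as means of 3 libraries.

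**Figure D1:**
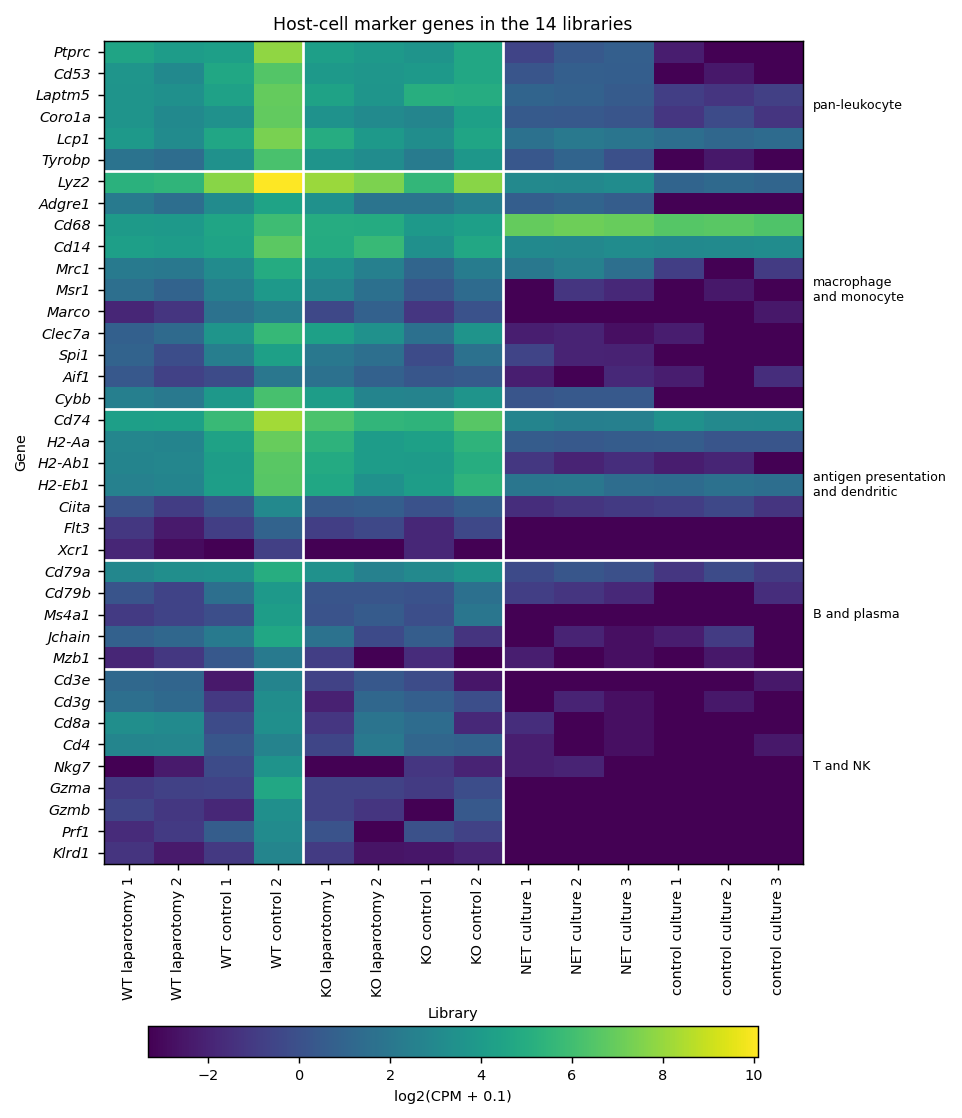
Levels of the 38 marker genes (rows, by class) in the 14 libraries (columns), as log2(CPM + 0.1), with white lines between classes and between tumour libraries of WT hosts, tumour libraries of KO hosts and cultures. The column of WT control 2 is the brightest for 37 of 38 genes among tumours, and Cd68 is the gene brighter in cultures than in tumours.

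In tumours most of the other genes stood far above culture. Of the 36 members that passed the filter on low counts, 32 were higher and 1 was lower at an adjusted p under 0.05, where 38.0% and 33.6% of all 14318 tested genes were; Klrd1 and Xcr1 did not pass it. All 8 tumour libraries lay above all 3 control cultures for 29 of 38 members, against 30.9% of tested genes. The median log2 fold change of the 36 was 5.90, or 4.95 with the 10 genes that had no count in culture set at their lower bound. Without WT control replicate 2, 31 of 35 members tested were called in either direction, as were 69.1% of all genes. Growth in a host and cell sorting were both confined to the tumour libraries and cannot be told apart.

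Among the pan-leukocyte genes, Ptprc (chromosome 1, 138062861 to 138175708), the CD45 phosphatase, had 9583 counts in the 8 tumour libraries and 1 count in the 3 control cultures, which is 1796 times the culture level (95% interval from counting error 322 to 70960). Cd53, a tetraspanin, had 5032 counts against 1 (ratio 943, 169 to 37260), and Tyrobp, the adaptor DAP12 of myeloid and NK receptors, 3294 against 1 (ratio 618, 111 to 24400). The lysosomal protein Laptm5 rose by 5.95 ± 0.79 on the log2 scale, Coro1a, an actin regulator of leukocytes, by 5.16 ± 1.04, and Lcp1 by 3.42 ± 0.76. All 6 were called (edgeR adjusted p at most 0.00389), as were all 12 other pan-leukocyte genes that were looked up beside them.

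Of the macrophage genes, Lyz2 (chromosome 10, 117277331 to 117282321) had the highest level per kilobase of exon of all 38, with a median of 146 CPM per kb over the tumour libraries. Cybb, a subunit of the phagocyte oxidase, was at least 211-fold higher in tumours than in control cultures, Adgre1, the F4/80 antigen, at least 86.7-fold and Spi1, the transcription factor PU.1, at least 56.5-fold, each computed against the floor of 3 counts. The scavenger receptor Msr1 had 853 counts against 1, the beta-glucan receptor Clec7a 2580 against 1, and Marco 273 against 1. Mrc1, the mannose receptor, rose by 4.66 ± 0.75 on the log2 scale, Aif1, the calcium-binding protein IBA1, by 3.65 ± 0.89 and Cd14 by 1.85 ± 0.52 (edgeR adjusted p from 0.00027 to 0.0126). In this class 10 members were higher and Cd68 lower, and 13 of 15 other macrophage genes tested, among them the complement chain C1qa and the receptor Csf1r, were higher too.

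The MHC class II genes were held by the cultures at low levels and stood higher in tumours. H2-Ab1 had 5598 counts in tumours and 3 in control cultures (ratio 350, interval 120 to 1697). H2-Aa rose by 4.47 ± 0.78 on the log2 scale, H2-Eb1 by 2.92 ± 0.65 and Cd74 by 2.82 ± 0.61 (edgeR adjusted p from 0.00105 to 0.00379). Ciita, the class II transactivator, rose by 1.67 ± 0.67 (edgeR adjusted p = 0.0432) but was not called without WT control replicate 2 (1.14 ± 0.54, edgeR adjusted p = 0.0818), nor without any of 7 other libraries left out singly (edgeR adjusted p up to 0.146). Of 11 other dendritic and class II genes tested, 4 were higher and 4 lower, and the lower ones were Batf3, Zbtb46, H2-Oa and H2-DMa.

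Class II promoters are known for a conserved module read by a set of DNA-binding factors that recruit CIITA. It ends in the Y box, and the 150 bases before the start of H2-Aa and H2-Eb1 are printed because both hold the letters CTGATTGG, here in capitals, as RefSeq gives them on GRCm38.p6, 5′ to 3′ on the gene's strand. The H2-Aa window is chr17:34287824-34287973 on the minus strand, and the H2-Eb1 window is chr17:34305717-34305866 on the plus strand.
H2-Aa: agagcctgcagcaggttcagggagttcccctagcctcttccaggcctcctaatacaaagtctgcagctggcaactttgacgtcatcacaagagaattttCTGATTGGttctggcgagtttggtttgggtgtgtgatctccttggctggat
H2-Eb1: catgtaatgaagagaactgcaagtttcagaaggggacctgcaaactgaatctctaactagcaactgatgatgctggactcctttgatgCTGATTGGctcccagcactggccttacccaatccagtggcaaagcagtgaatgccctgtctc
The first base of the motif lies at -51 in H2-Aa and at -62 in H2-Eb1. Searched on both strands in windows of 300 bases, the same letters were found in 3 of the 25 members with a RefSeq entry (Gzma was the other) and in 4.10% of 32851 windows. The ETS motif GAGGAAGT was found in Cd53 alone (3.20% of windows) and CAGGAAGT in Cd3e, Cd79a, Lyz2, Mrc1, Prf1 and Ptprc (3.33% of windows). A match describes letters in a window and is not a binding site.

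B and plasma genes and T and NK genes had the lowest class sums in all 8 tumour libraries. Cd79a (chromosome 7, 24897381 to 24902197), a chain of the B cell receptor, rose by 4.47 ± 0.51 on the log2 scale (edgeR adjusted p = 1.9e-05). Cd79b, its partner, had 648 counts against 3 in control cultures, the B cell surface protein Ms4a1 (CD20) 710 against 0, and Jchain, which joins secreted immunoglobulins, rose by 3.87 ± 1.05. Of the T and NK genes, Cd8a was at least 57.9-fold higher in tumours than in control cultures, and the protease Gzma at least 54.2-fold. Cd8a was called, but not in the fit with no filter on low counts. Cd4 had 750 counts against 1 (ratio 141, interval 25.2 to 5560). The members tested and not called were Mzb1, a plasma cell chaperone, the protease Gzmb and Nkg7, a granule protein. The calls of Gzma, Cd3e and Prf1 were lost with some single libraries left out. Gzma missed the threshold in 5 such fits (edgeR adjusted p 0.050 to 0.0583) and with no filter on low counts (0.0727), while its fitted log2 fold change stayed at 7.34 to 7.58. Cd3e missed it without control culture replicate 1 or 2 (edgeR adjusted p = 0.0532 and 0.0609), and the fit of Prf1 gave no usable standard error without KO laparotomy replicate 1 (edgeR adjusted p = 0.9999).

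The second result concerns how the levels were spread over the 8 tumour libraries. WT control replicate 2 was the highest tumour library for 37 of the 38 members, and for 21.0% of all tested genes; the exception was Cd4, highest in WT laparotomy replicate 2. Summed over all members, the WT laparotomy libraries held 247 and 223 CPM, the WT control libraries 567 and 3110, the KO laparotomy libraries 719 and 479, and the KO control libraries 291 and 680 CPM. All but WT control replicate 2 lay within 223 to 719 CPM. Leaving that library out, the highest value of a member was most often in KO control replicate 2 (13 members, among them Ptprc, Cd74 and the 3 MHC class II chains) and in KO laparotomy replicate 1 (10 members, 8 of them macrophage genes). Over all tested genes those libraries were the highest for 18.6% and 12.3%.

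**Figure D2:**
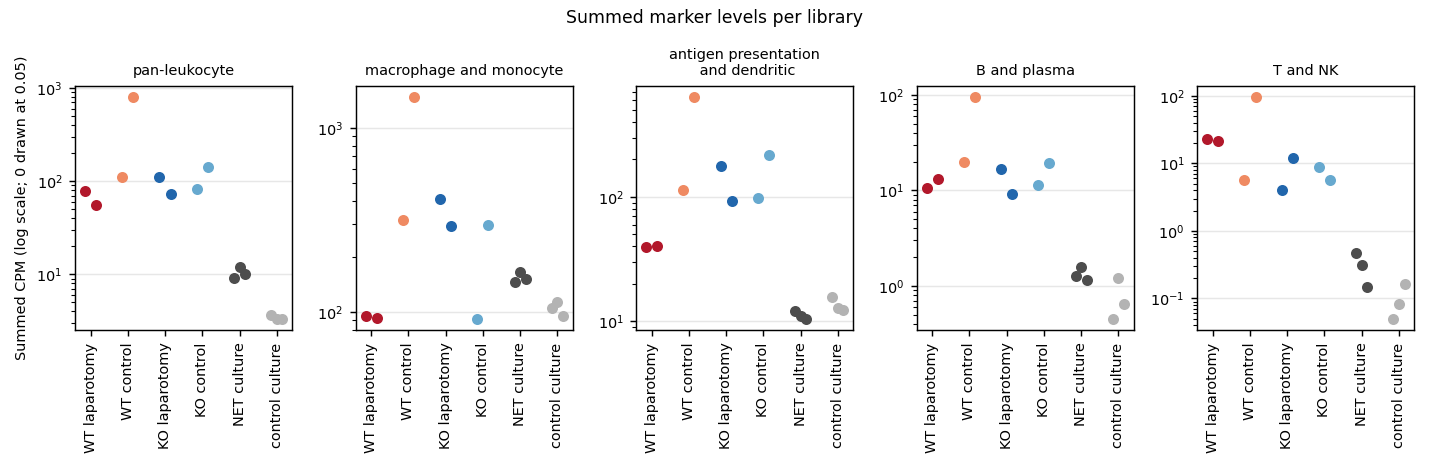
Summed CPM of each class per library (points, log axes, 1 panel per class, a sum of 0 drawn at 0.05), with laparotomy left of control in each host and NET culture left of control culture. WT control replicate 2 reaches 805, 1475, 637, 95.1 and 96.8 CPM in the 5 classes, and T and NK genes are the class in which both WT laparotomy libraries (23.2 and 21.1 CPM) exceed every other library but that one.

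Laparotomy in WT hosts was compared with WT control hosts. Ptprc had 22.7 and 16.7 CPM in WT laparotomy libraries, against 18.9 and 230.5 CPM in WT control libraries. Lyz2 had 37.4 and 43.5 CPM in WT laparotomy libraries, against 213 and 1095 CPM in WT control libraries. The groups overlapped for Ptprc and not for Lyz2, and WT control replicate 2 was 12.2 times replicate 1 for Ptprc and 5.15 times for Lyz2. None of the 36 tested members passed the threshold with edgeR, where 0.0547% of all 14615 genes did, and 26 had an unadjusted p under 0.05 with a lower value in WT laparotomy (11.4% of all genes). DESeq2 called 23 members, all lower, where it called 6.23% of all genes lower.

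**Figure D3:**
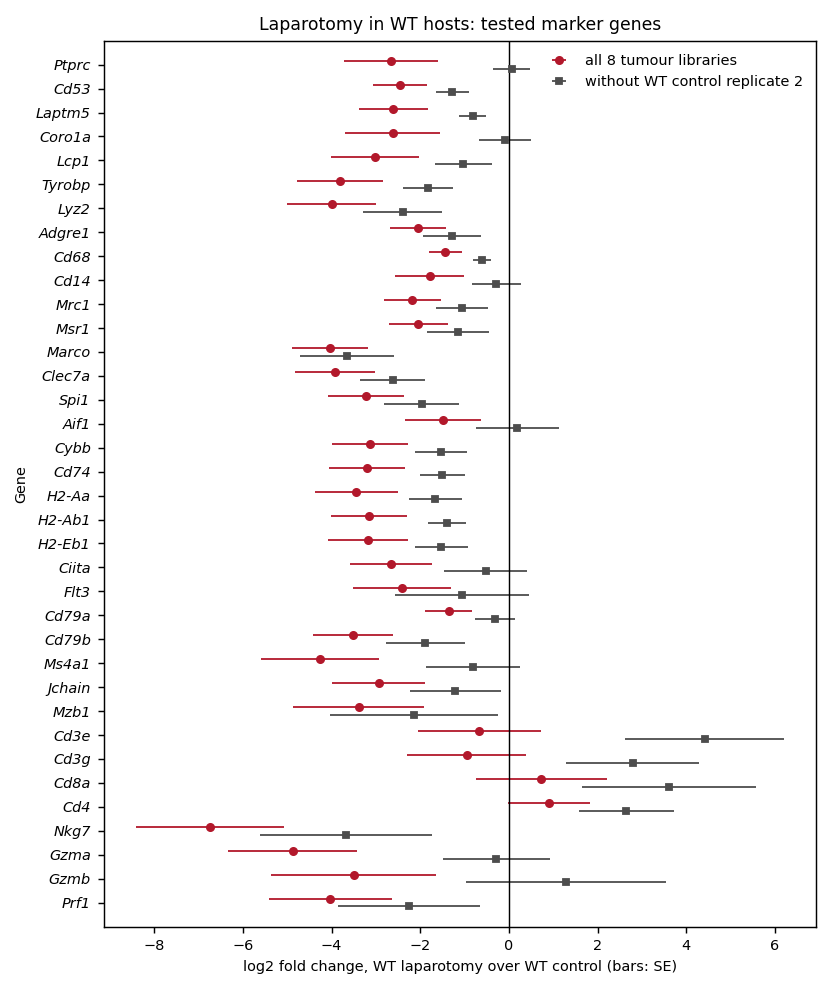
Fitted log2 fold change of the 36 tested members, WT laparotomy over WT control (circles, all 8 tumour libraries; squares, without WT control replicate 2; bars, SE). Circles have a median of -2.98 and squares of -1.11, and Cd3e and Cd3g lie left of 0 as circles (-0.67 and -0.95) and right of it as squares (4.42 and 2.79).

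Of the 38 members, 29 lay lower in both WT laparotomy libraries than in both WT control libraries and 1, Cd4, higher, against 29.1% and 28.1% of all tested genes. The median log2 fold change of the tested members was -2.98, and -1.11 without WT control replicate 2, with -0.01 over all genes. The macrophage class summed to 94.9 and 92.5 CPM in WT laparotomy, against 317 and 1475 CPM in WT control libraries, without overlap. The B and plasma class summed to 10.5 and 13.2 CPM in WT laparotomy, against 19.8 and 95.1 CPM in WT control libraries, and the pan-leukocyte class to 78.8 and 55.5 CPM against 111 and 805 CPM. Of the 5 classes, 4 thus lay lower in both WT laparotomy libraries than in WT control replicate 1, and the T and NK class did not.

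The macrophage genes with the smallest p were Marco and Clec7a. Marco, a scavenger receptor known from alveolar macrophages, had 0.175 and 0.320 CPM in WT laparotomy, against 3.23 and 5.22 CPM in WT control libraries. Its log2 fold change was -4.04 ± 0.86 (edgeR adjusted p = 0.134), and -3.65 ± 1.07 without WT control replicate 2 (edgeR adjusted p = 0.304). Clec7a had 1.62 and 2.43 CPM in WT laparotomy, against 12.5 and 49.8 CPM in WT control libraries, and a log2 fold change of -3.92 ± 0.90 (edgeR adjusted p = 0.138; -2.62 ± 0.73 without that library). For both genes the groups did not overlap.

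In the antigen presentation class, Cd74 had 19.1 and 19.5 CPM in WT laparotomy, against 54.9 and 302 CPM in WT control libraries. Its log2 fold change was -3.20 ± 0.85 (edgeR adjusted p = 0.163; -1.50 ± 0.50 without WT control replicate 2), and that of H2-Ab1 -3.15 ± 0.85 (edgeR adjusted p = 0.165; -1.39 ± 0.43). The groups were apart for 6 of the 7 genes of the class. Of the pan-leukocyte genes, Cd53 had a log2 fold change of -2.46 ± 0.60 (edgeR adjusted p = 0.144; -1.28 ± 0.37 without that library) and Tyrobp of -3.80 ± 0.97 (edgeR adjusted p = 0.154; -1.83 ± 0.56). The B cell genes Cd79b and Ms4a1 had -3.51 ± 0.90 and -4.26 ± 1.34 (edgeR adjusted p = 0.142 and 0.174), and -1.88 ± 0.88 and -0.81 ± 1.06 without it.

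With WT control replicate 1 left out, edgeR called 21 members (3.28% of all genes), and with replicate 2 left out it called 0 (0.0859%), the lone library left being assumed to vary like the other groups. None of 15 other macrophage genes was called, and all 15 had an estimate below 0. The summed level of 7 endothelial genes was 41.8 to 44.8 CPM in WT laparotomy against 103 to 433 CPM in WT control libraries. The neutrophil list of 10 genes summed to 149 to 187 CPM in WT laparotomy and to 167 to 851 CPM in WT control libraries. These sums overlapped, but in the fit of all 8 tumour libraries all 9 neutrophil genes tested had an estimate below 0. Their median log2 fold change was -5.289, and none was called. Fibroblast genes overlapped, at 776 to 1128 CPM in WT laparotomy and 966 to 1084 CPM in WT control libraries. The other T and NK genes overlapped too, at 45.4 to 47.2 CPM and 23.1 to 183 CPM. Control cultures held 85.8 to 98.2 CPM of that last list, so its sum in a tumour library is not that of host cells alone. Of its 14 genes tested in tumours against control culture, 10 were called higher and 3 lower (38.0% and 33.6% of all genes). The part of the cells behind these lists in the comparison of WT hosts was not tested.

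The T cell co-receptor genes overlapped or lay higher in WT laparotomy. Cd8a (chromosome 6, 71373427 to 71379173), the CD8 co-receptor chain, had 9.80 and 8.32 CPM in WT laparotomy, against 0.738 and 10.1 CPM in WT control libraries. Cd4, the co-receptor of helper T cells, had 6.87 and 7.04 CPM in WT laparotomy, against 1.11 and 6.27 CPM in WT control libraries. Both WT laparotomy libraries were thus near the level of WT control replicate 2 and far above replicate 1. Their log2 fold changes were 0.73 ± 1.48 for Cd8a and 0.90 ± 0.92 for Cd4, neither past the threshold. Without WT control replicate 2 the estimates were 3.61 for Cd8a and 2.65 for Cd4.

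The genes of cytotoxic granules and NK cells behaved otherwise. Gzma, the protease granzyme A, had 0.394 and 0.512 CPM in WT laparotomy, against 0.553 and 26.7 CPM in WT control libraries, and Nkg7 0 and 0.0960 CPM against 0.738 and 11.9 CPM. Nkg7 was at 3 counts in WT laparotomy and 358 in WT control libraries, 0.00625 times the WT control level (95% interval from counting error 0.00128 to 0.0184). The log2 fold change of Gzma was -4.88 ± 1.46 (edgeR adjusted p = 0.167), and -0.28 ± 1.21 without WT control replicate 2. Gzma, Gzmb, Prf1 (perforin) and Klrd1 (the CD94 chain of NK receptors) all stood highest in WT control replicate 2, at 6.74 to 26.7 CPM, and at 1.48 CPM or less in the other 7 tumour libraries.

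**Figure D4:**
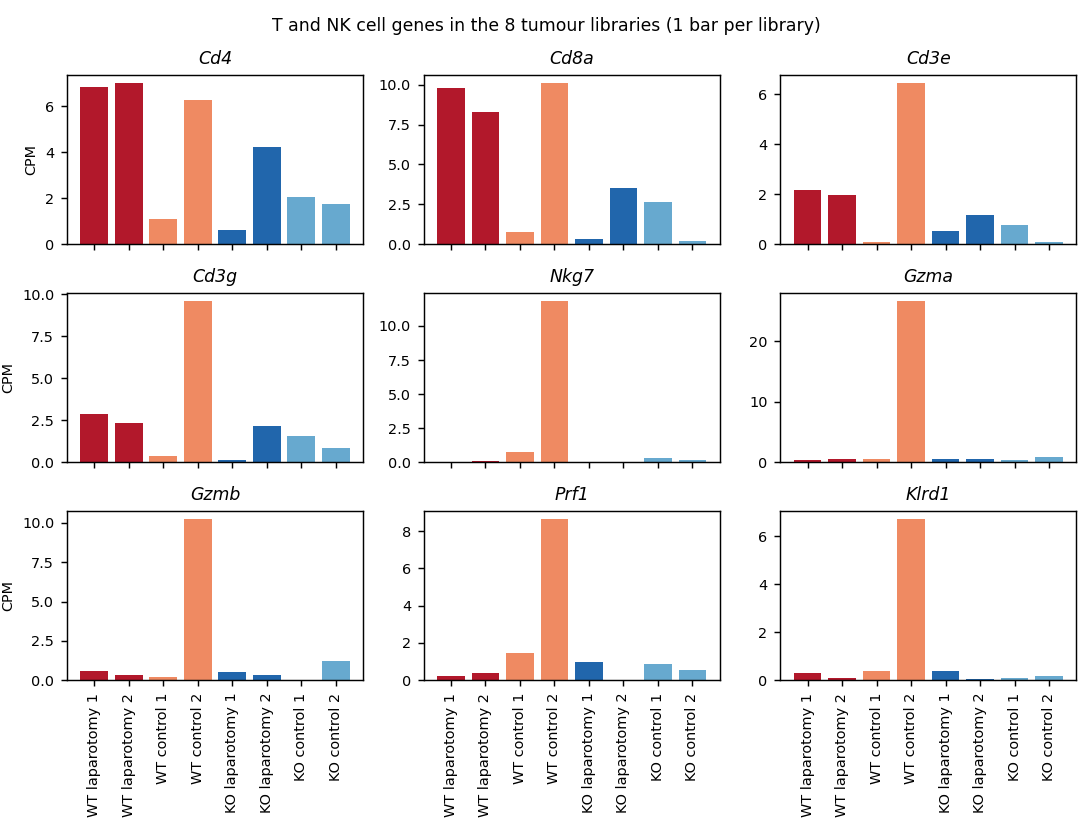
CPM of the 9 T and NK genes in the 8 tumour libraries (bars from 0, 1 per library, panels with their own axes, laparotomy left of control in each host). Cd4 and Cd8a stand at 6.87 to 9.80 CPM in both WT laparotomy libraries, whereas Gzma, Gzmb, Nkg7, Prf1 and Klrd1 are high in WT control replicate 2 alone.

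Summed per library, the receptor and co-receptor genes (Cd3e, Cd3g, Cd8a, Cd4) reached 21.7 and 19.7 CPM in WT laparotomy and 2.31 and 32.5 CPM in WT control libraries. The 5 cytotoxic and NK genes summed to 1.49 and 1.44 CPM in WT laparotomy and to 3.32 and 64.3 CPM in WT control libraries. In KO hosts the receptor sums were 1.59 and 11.1 CPM with laparotomy and 7.03 and 2.86 CPM in controls. Receptor genes exceeded cytotoxic genes in both WT laparotomy libraries, in KO laparotomy replicate 2 and in KO control replicate 1, and cytotoxic genes were the larger sum in both WT control libraries and in KO laparotomy replicate 1. Relative to the pan-leukocyte sum, T and NK genes stood at 0.294 and 0.380 in WT laparotomy libraries and at 0.0366 to 0.165 in the other 6.

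In KO hosts laparotomy was compared with KO control. No tested member passed the threshold with edgeR, where 0.520% of all genes did, 1, Cd68, had an unadjusted p under 0.05 with a higher value (8.24% of all genes), and DESeq2 called 0, against 5.4% of all genes. All 11 macrophage genes had an estimate above 0 (49.3% of all genes did), with a median log2 fold change of 0.91 against -0.01 over all genes. Of the 11, Adgre1 and Cybb changed sign with a single library left out. Among 15 other macrophage genes tested, 11 estimates were above 0 and 4 below, with a median of 0.64. Fibroblast genes had a median of 1.08 (4 of 5 above 0) and endothelial genes of -1.02 (0 of 7 above 0), and their part in the result was not tested. Lyz2 had 274 and 175 CPM in KO laparotomy, against 47.8 and 208 CPM in KO control libraries, so the groups overlapped. Mrc1 had 10.8 and 5.61 CPM in KO laparotomy, against 1.96 and 4.89 CPM in KO control libraries, without overlap.

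The macrophage genes Cd68, Cd14, Mrc1, Msr1 and Aif1 lay higher in both KO laparotomy libraries than in both KO control libraries, and Laptm5 and Nkg7 lay lower. That is 5 and 2 of 38 members, against 19.9% and 22.7% of all tested genes. Cd68 had a log2 fold change of 0.88 ± 0.37 (edgeR adjusted p = 0.300) and Msr1 of 1.48 ± 0.66 (edgeR adjusted p = 0.330). In the other classes the genes with the smallest p had estimates of -0.93 ± 0.75 for Laptm5, -0.52 ± 0.59 for Cd53, -0.69 ± 0.83 for H2-Eb1, -0.88 ± 0.86 for Cd79b 1.14 ± 1.06 for Jchain, 0.46 ± 1.08 for Flt3 and 1.00 ± 1.51 for Cd3e (edgeR adjusted p from 0.617 to 0.885). Nkg7 had no count in KO laparotomy and 13 in KO control libraries, at least 2.47-fold lower against the floor of 3 counts over the group.

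The balance between macrophage and pan-leukocyte genes within a library is a description, with no test. Divided by the pan-leukocyte sum, the macrophage genes without Cd68 reached 3.41 and 3.63 in KO laparotomy, against 0.934 and 1.97 in KO control libraries, and 1.00 and 1.40 in WT laparotomy, against 2.64 and 1.76 in WT control libraries. The KO laparotomy libraries were the highest of the 8 and, in KO hosts, did not overlap with their controls. In WT hosts the order was the other way, also without overlap. Without Lyz2 as well, the ratios were 0.939 and 1.21 in KO laparotomy, 0.350 and 0.489 in KO control, 0.527 and 0.612 in WT laparotomy, and 0.729 and 0.398 in WT control libraries, so that in WT hosts the groups then overlapped.

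The difference between the laparotomy effects, KO minus WT, was tested as an interaction. No member passed the threshold with edgeR, where 0.677% of all genes did, and 17 had an unadjusted p under 0.05 with a positive value, against 10.7% of all genes; DESeq2 called 10 higher, against 5.07% of all genes. The median was 3.0, and 1.34 without WT control replicate 2, with 0.03 over all genes. Cd68 had 2.31 ± 0.52 (edgeR adjusted p = 0.0886) and passed without WT control replicate 2 (1.48 ± 0.27, edgeR adjusted p = 0.0460) and without replicate 1 (2.81 ± 0.25, edgeR adjusted p = 0.00875). It did not pass without any of the other 6 libraries (edgeR adjusted p 0.107 to 0.353). Marco had 4.95 ± 1.15 (edgeR adjusted p = 0.0929; 4.56 ± 1.39 without replicate 2) and Tyrobp 4.05 ± 1.29 (edgeR adjusted p = 0.178; 2.08 ± 0.73). Lcp1 had 3.54 ± 1.35, H2-Aa 3.37 ± 1.24, Cd74 3.07 ± 1.14, Jchain 4.08 ± 1.49, Cd79b 2.63 ± 1.22, Gzma 4.71 ± 1.99 and Prf1 3.52 ± 1.88 (edgeR adjusted p from 0.201 to 0.344). Without WT control replicate 2 these 7 stood at 0.11 (Gzma) to 2.35 (Jchain).

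KO control hosts were compared with WT control hosts, which share the WT control libraries with the comparison of laparotomy above. No member passed with edgeR, where 0.116% of all genes did, all 36 estimates were below 0 (52.2% of all genes), and 18 had an unadjusted p under 0.05 (9.19% of all genes); DESeq2 called 10 members lower, against 3.19% of all genes. Without WT control replicate 2 the median of -2.09 became -0.19, and 16 of the 36 estimates lay above 0 (52.4% of all genes), among them those of Ptprc, Laptm5, Coro1a, the 3 MHC class II chains, Ms4a1, Cd3e, Cd3g, Cd8a and Cd4. Mrc1 had -2.50 ± 0.65 (edgeR adjusted p = 0.164; -1.37 ± 0.59 without that library) and Msr1 -2.44 ± 0.67 (edgeR adjusted p = 0.175; -1.56 ± 0.70). Jchain had -3.99 ± 1.12, Mzb1 -4.56 ± 1.60 and Nkg7 -4.63 ± 1.44 (edgeR adjusted p from 0.187 to 0.232), and -2.26, -3.32 and -1.55 without it. Cd53 had -1.49 ± 0.58 and Lcp1 -2.54 ± 0.97 (edgeR adjusted p = 0.284 for both), and -0.32 and -0.55 without it. Cd74, Ciita and Gzma had -1.33 ± 0.79, -1.86 ± 0.90 and -4.46 ± 1.42 (edgeR adjusted p from 0.215 to 0.462), and are among the 16, at 0.36 ± 0.52, 0.27 ± 0.94 and 0.14 ± 1.21 without it. Of the 38 members, 15 lay lower in both KO control libraries than in both WT control libraries, 9 of them macrophage genes, against 25.0% of tested genes, and 0 lay higher (19.4%).

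After laparotomy, KO hosts were compared with WT hosts, a comparison that does not use WT control replicate 2 except through the shared estimate of spread. Lyz2 had 274 and 175 CPM in KO laparotomy, against 37.4 and 43.5 CPM in WT laparotomy libraries. H2-Aa had 41.1 and 17.1 CPM in KO laparotomy, against 7.0 and 6.43 CPM in WT laparotomy libraries. Tyrobp had 12.2 and 9.01 CPM in KO laparotomy, against 3.41 and 2.69 CPM in WT laparotomy libraries. In each of these genes both KO libraries were the higher ones, without overlap.

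Over the list, 22 of 38 members lay higher in both KO laparotomy libraries than in both WT laparotomy libraries and 5 lower, against 22.5% and 30.8% of all tested genes. The 22 comprised 10 of 11 macrophage genes and 6 of 7 of antigen presentation, and the 5 lower ones were Cd3e, Cd3g, Cd8a, Cd4 and Xcr1, a dendritic cell chemokine receptor with 0 counts in KO laparotomy and 5 in WT laparotomy libraries. None was called with edgeR, where 0.0205% of all genes were, and 4 had an unadjusted p under 0.05 with a higher value (7.07% of all genes); DESeq2 called 1, Clec7a, where it called 2.46% of all genes higher. Clec7a had a log2 fold change of 2.95 ± 0.88 (edgeR adjusted p = 0.251), Cd68 of 1.04 ± 0.37 (edgeR adjusted p = 0.292) and H2-Aa of 2.16 ± 0.90 (edgeR adjusted p = 0.386). H2-Ab1 had 1.81 ± 0.83, Tyrobp 1.84 ± 0.92, Lcp1 1.00 ± 0.95, Ms4a1 1.37 ± 1.28 and Cd79b 0.50 ± 0.88 (edgeR adjusted p from 0.417 to 0.835). Cd4 and Cd8a had -1.46 ± 0.95 and -2.17 ± 1.57 (edgeR adjusted p = 0.533 and 0.586).

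A fit of these 4 libraries alone called 6 of the 31 members it tested, all higher, where 1.08% of its 13405 genes were: Cd68, Cd74, Clec7a, H2-Ab1, Lyz2 and Tyrobp. That fit estimates the spread without the WT control and KO control libraries. Of the markers of other host cells, lung epithelial genes summed to 78.1 to 88.9 CPM in KO laparotomy against 9.97 to 20.6 CPM in WT laparotomy libraries, and endothelial genes to 69.0 to 85.8 CPM against 41.8 to 44.8 CPM, without overlap. The neutrophil sums overlapped, at 145 to 233 CPM in KO laparotomy and 149 to 187 CPM in WT laparotomy libraries. So did the fibroblast sums, at 1006 to 2751 CPM and 776 to 1128 CPM. Gene by gene, all 9 neutrophil genes tested had an estimate above 0 (median log2 fold change 1.755). The same held for all 5 fibroblast genes (median 1.782), and none of either list was called. Their part in the result was not tested.

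NET chromatin was compared with control culture in cells that never met a host. Of the members 13 passed the filter, and 9 were higher and 1 lower at an adjusted p under 0.05 with edgeR, where 26.3% and 27.8% of all 11753 genes were. No B cell, T cell or NK member was among the 13. On plain CPM, 9 of the 13 lay higher in all 3 NET cultures than in all 3 controls and 1 lower, against 16.9% and 44.3% of tested genes. Over all 38 members, with those that did not pass the filter, 12 lay higher and 1 lower. With library totals in place of normalisation factors the median of all genes moved to -0.16, with 1640 genes higher and 4777 lower, against 3093 and 3270. The median log2 fold change of the 13 was 1.41, and on library totals the same 10 members were called.

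Lyz2 had 7.85, 7.67 and 9.07 CPM in NET cultures, against 1.93, 2.29 and 1.94 CPM in control cultures, a log2 fold change of 2.17 ± 0.19 (edgeR adjusted p = 9.8e-08). Mrc1 had 3.98, 5.95 and 2.86 CPM in NET cultures, against 0.455, 0 and 0.405 CPM in control cultures (3.93 ± 0.49, edgeR adjusted p = 5.9e-06). Cd68 had 122, 139 and 127 CPM in NET cultures, against 94.9, 102 and 83.4 CPM in control cultures (0.63 ± 0.08, edgeR adjusted p = 9.3e-06). In all of these the 3 NET cultures lay above the 3 controls.

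**Figure D5:**
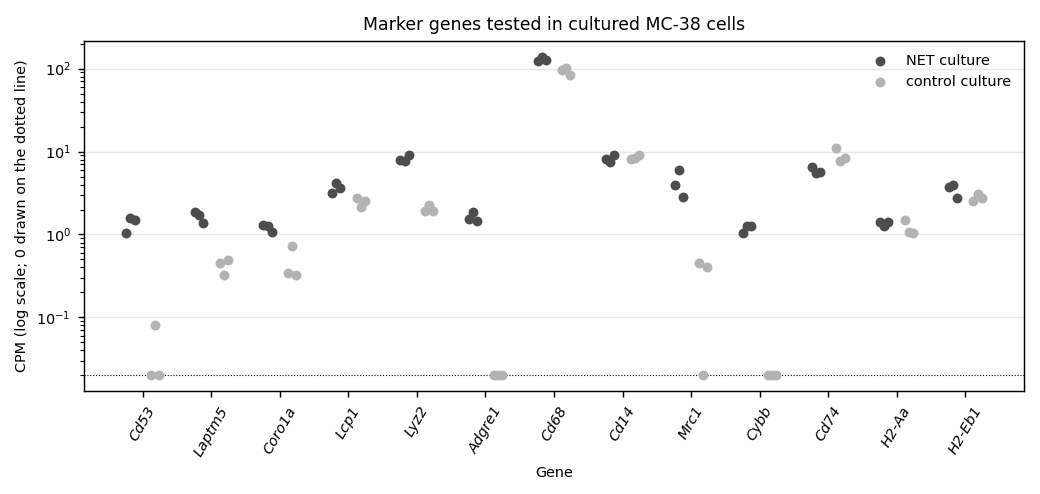
CPM of the 13 members tested in culture (log axis, 1 point per library, 3 per group, a value of 0 drawn on the dotted line), NET cultures left of control cultures for each gene. Adgre1 and Cybb have no count in any control culture and 1.05 to 1.88 CPM in NET cultures, and Cd74 is the gene whose NET cultures lie below the controls.

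Other macrophage and leukocyte genes had 40 to 55 counts in NET cultures and 0 or 1 in control cultures. Adgre1 (chromosome 17, 57358691 to 57483527) had 55 counts in NET cultures and 0 in control cultures, at least 17.2-fold higher, and Cybb 43 and 0, at least 13.5-fold higher. Ptprc had 45 counts against 1 (ratio 42.3, interval 7.21 to 1706), Cd53 50 against 1 (ratio 47.0, 8.05 to 1892) and Tyrobp 40 against 1 (ratio 37.6, 6.37 to 1521). Ptprc and Tyrobp did not pass the filter on low counts; without the filter both were called, with Spi1 (9 counts against 0). Laptm5 rose by 2.02 ± 0.37, Coro1a by 1.41 ± 0.40 and Lcp1 by 0.73 ± 0.21 on the log2 scale (edgeR adjusted p from 0.000198 to 0.00825).

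Of the class II genes, Cd74 was lower. It had 6.44, 5.48 and 5.73 CPM in NET cultures, against 11, 7.76 and 8.26 CPM in control cultures, a log2 fold change of -0.44 ± 0.16 (edgeR adjusted p = 0.0296). That call was lost in DESeq2 (adjusted p = 0.0782) and with edgeR without control culture replicate 1 (adjusted p = 0.148), NET culture replicate 2 (0.0551) or NET culture replicate 3 (0.134). H2-Eb1 had an estimate of 0.36 ± 0.22 (edgeR adjusted p = 0.181). Cd14 had 8.08, 7.51 and 8.98 CPM in NET cultures and 8.19, 8.33 and 9.16 CPM in control cultures, with overlap.

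The remaining classes were near the floor in culture. Flt3, Xcr1, Ms4a1, Gzma, Gzmb, Prf1 and Klrd1 had no count in any of the 6 cultures, and the T and NK class summed to 0.468, 0.313 and 0.146 CPM in NET cultures, against 0, 0.0816 and 0.162 CPM in control cultures. Of the genes looked up beside the members, 2 of 6 tested in the pan-leukocyte list were called higher, Rac2 (1.58 ± 0.32) and Arhgdib (1.71 ± 0.28). In the macrophage list 2 of 3 were, Ctss (0.91 ± 0.27) and Mpeg1 (0.52 ± 0.21). The dendritic list had 1 of 6 higher and 1 lower, and no B, plasma, T or NK gene was called. Over all tested genes 26.3% were higher and 27.8% lower. Neutrophil genes summed to 20.4 to 21.9 CPM in NET cultures and to 9.55 to 10.1 CPM in control cultures. Of the 10 neutrophil genes 2 passed the filter, and 2 were called higher (median log2 fold change 3.919). Fibroblast genes also stood higher in NET cultures, at 128 to 139 CPM against 99.6 to 103 CPM. Of these, 2 were tested and 2 called higher (median log2 fold change 0.9165). Endothelial sums overlapped, at 2.67 to 4.45 CPM and 1.31 to 2.96 CPM, but the 1 gene tested was called higher (log2 fold change 1.444). Lung epithelial genes lay lower, at 0.313 to 0.9705 CPM against 1.14 to 1.38 CPM, and the 1 gene tested was not called. The NET chromatin came from neutrophils kept in culture, and the part of neutrophil RNA in the result was not tested.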

How the data were processed

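The authors' deposited files hold raw read counts per gene for each library (3 count columns, unstranded and 1 for each strand). Trimmomatic, STAR and the mm10 build were used, per the submitters' processing notes. Their versions, the annotation and the kit were not given in the sources used here. The 4 summary lines that name no gene were left out of all totals and fits. Reads without a position made up 4.00 to 11.5%, multimapping reads 6.14 to 9.25%, without a feature 12.1 to 24.0% and ambiguous 1.11 to 1.51% of all reads. The unstranded column was used, so reads of a gene and of one overlapping it on the other strand are not separated.

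Levels are plain CPM. Tests used edgeR 4.0.16 in R 4.3.3 (filterByExpr, TMM factors, robust quasi-likelihood test) over all genes, adjusted by Benjamini-Hochberg, threshold 0.05; DESeq2 1.42.0 was an alternative. The 6 cultures, the 8 tumour libraries in 4 groups, and the tumours with the control cultures were fitted apart, with common coefficients of variation of 0.0633, 0.278 and 0.217. The edgeR step was run on simulated counts with known folds, in which no library stood apart from the others. That run therefore cannot show how the step behaves with a library such as WT control replicate 2. Members, classes and other lists were chosen with earlier results of these data known. Test values are given for called members and, per class and comparison, for the 2 smallest p; others were chosen after their values were seen. Intervals and floors cover counting error only, since no molecular identifiers are stated. Replicates of a group differed by more than sampling noise. Positions are from GENCODE M21 (GRCm38), promoters from RefSeq (GRCm38.p6). Of 10 further genes looked up after values were seen, 1 is not reported here.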

Additional observations from a re-analysis of the deposited data

How the results depend on the processing

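Tumour groups hold 2 libraries and culture groups 3, and the part of depth in the counts of calls was not tested. Of the 94 member values named by rule (called members and the 2 smallest p of each class and comparison), 550 refits under other settings kept their direction and side of the threshold, 27 passed it newly and 3 no longer did. With one library left out, 623 refits of these 94 values kept both, 16 passed newly, 19 no longer did and 8 reversed. The cause was not tested for any of these changes.

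In culture, members called lower (1, Cd74) came to 0 with DESeq2 and to 0 to 1 with one library left out. For WT laparotomy against WT control, 8 genes were called in all; the count was 13 with RLE factors, 1207 with DESeq2, 166 with no filter, 14 with the compared groups alone, 0 with the replicate block and 0 to 512 with one library left out. Members called there were 23 with DESeq2, 1 with no filter and 0 to 21 with one library left out. For KO laparotomy against KO control (76 genes), DESeq2 called 789, no filter 278, and leaving one library out 0 to 138. For the interaction (99 genes), the counts were 1158, 399 and 0 to 344, and 56 with the replicate block; members called were 10 with DESeq2, 2 with no filter and 0 to 9 with one library left out. For KO control against WT control (17 genes), DESeq2 called 784, no filter 196, the replicate block 0, the compared groups alone 0, and leaving one library out 0 to 218; members called were 10 with DESeq2 and 0 to 6 with one library left out. For KO laparotomy against WT laparotomy (3 genes), DESeq2 called 567, no filter 152, the replicate block 1, the compared groups alone 220, and leaving one library out 0 to 2; members called were 1 with DESeq2 and 6 with the compared groups alone.

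Whether equal replicate numbers pair the libraries was left undecided. Correlations of their deviations from the group means ran from -0.12 to 0.36 (WT control with KO control) among tumours and from -0.03 to 0.09 in culture. With 2 libraries in a tumour group the deviations mirror each other, so those correlations cannot decide it. A crossed replicate block for KO laparotomy against KO control, added after seeing the data, called 74 genes higher and 39 lower and 0 members. Without its most abundant member, the antigen presentation sum had a NET against control log2 ratio of 0.24 in place of -0.27, and the macrophage sum a KO against WT laparotomy log2 ratio of 1.25 in place of 1.89; the T and NK sum has no NET ratio, since 1 control culture is at 0.

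Over all members tested, leaving out WT control replicate 2 changed the sign of 5 for WT laparotomy against WT control, 8 for the interaction and 16 for KO control against WT control. With any one library left out, 6, 12 and 16 changed sign there, 23 for KO laparotomy against KO control, 8 for KO against WT laparotomy, and 0 in the comparisons with control culture. Of the 94 values, those that changed sign ran as follows. For KO laparotomy against KO control the log2 fold change ran from -1.48 to 0.18 for Cd79b, from -1.43 to 0.023 for H2-Eb1, from -0.30 to 2.72 for Jchain and from -0.16 to 1.56 for Flt3. The interaction value of Prf1 ran from -3.06 (without KO laparotomy replicate 1) to 4.49. For KO control against WT control the value ran from -5.40 to 0.14 for Gzma, from -2.64 to 0.27 for Ciita and from -2.06 to 0.36 for Cd74, each positive only without WT control replicate 2.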

Other observations

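Genes of immature T cells were looked up after the T cell receptor genes had been seen to stand high in WT laparotomy libraries, so these values are a description with no test. Rag1, a subunit of the recombinase that joins antigen receptor genes, had 23.9 and 16.7 CPM in WT laparotomy, 0.553 and 0.271 CPM in WT control, 0.266 and 6.33 CPM in KO laparotomy and 4.96 and 3.63 CPM in KO control libraries, and no count in any culture. Dntt, the polymerase that adds bases at those joints, had 9.62 and 7.81 CPM in WT laparotomy, 0.0922 and 0 CPM in WT control, 0.199 and 3.39 CPM in KO laparotomy and 2.18 and 1.03 CPM in KO control libraries. Arpp21 had 3.41 and 2.75 CPM in WT laparotomy, 0 and 0.0678 CPM in WT control, 0 and 1.5 CPM in KO laparotomy and 0.703 and 0.649 CPM in KO control libraries. For these 3 of the 10 genes looked up, and for Ccr9, both WT laparotomy libraries were the highest of the 8 tumour libraries. Ptcra, the pre-T-cell receptor chain, did not show this at its depth: it had 1 and 3 counts in WT laparotomy, and 0 to 2 counts in the other tumour libraries. Tcf7, Satb1 and Il7r were highest in WT control replicate 2, Tcf7 with 44 and 41.2 CPM in WT laparotomy and 18.6 and 46.4 CPM in WT control libraries. Control cultures held 11.95, 13.06 and 11.83 CPM of Tcf7, so its level in a tumour library is not that of host cells alone.

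Satb1, a chromatin organiser known from thymocytes, and Themis, a T cell selection protein, followed the T cell receptor genes more closely: Satb1 had 17.8 and 11.8 CPM in WT laparotomy, 1.48 and 22.5 CPM in WT control, 0.332 and 9.46 CPM in KO laparotomy and 6.4 and 5.08 CPM in KO control libraries. Themis had 5.73 and 4.32 CPM in WT laparotomy, 0.0922 and 4.61 CPM in WT control, 0.465 and 2.15 CPM in KO laparotomy and 1.11 and 1.41 CPM in KO control libraries.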
